A study of Mus musculus with 43 samples.

Results

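The genes described here encode the subunits, activators, inhibitor and assembly chaperones of the proteasome. They were chosen by symbol alone, as every row of the count table whose name starts with Psma to Psmg followed by a digit and does not carry the pseudogene mark "-ps". The rule found 50 genes of 54532. A further 4 rows carried the mark and were left out. All 50 reached 0.5 CPM (counts of a gene scaled to a library total that is the same for every library) in at least 1 library and were tested, and 40 of them had a mean of at least 10 CPM.

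The study sorted endothelial cells (EC) of the brain as CD45-, CD11b-, CD31+ cells from untreated mice of 2 months and sequenced total RNA in 43 libraries. Strains were 129S1/SvImJ with 9 libraries, A/J with 5, C57BL/6J with 6, DBA/2J with 5 and NOD/ShiLtJ with 6, which are long-inbred strains, and CAST/EiJ with 6 and WSB/EiJ with 6, which are wild-derived. No mouse carried a transgene or was given an agent as far as the labels state. Cortex gave 21 libraries and hippocampus 22, female mice 16 and male mice 27. Each title also carries high or low, a tag that the labels do not explain. In 4 female 129S1/SvImJ libraries a number follows it, 2 in 1 of them and 3 in the others, also unexplained. Of all libraries, 15 of 16 female and 14 of 27 male libraries are titled high. Mouse identity is not part of the labels, so p-values measure the spread between libraries, part of which may be technical.

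The proteasome is the protease that degrades ubiquitin-tagged proteins in the cytosol and nucleus. Its 20S core is a barrel of alpha and beta rings, and Psmb5, Psmb6 and Psmb7 encode the beta subunits that cut peptide bonds. The 19S cap recognises tagged proteins (Psmd genes) and unfolds them with a ring of ATPases (Psmc genes). In the immunoproteasome, Psmb8 takes the place of Psmb5, Psmb9 that of Psmb6 and Psmb10 that of Psmb7, and the peptides it makes are well suited to display on MHC class I. Interferon is known to raise the immunoproteasome genes and the PA28 activator genes Psme1 and Psme2, and EC are among the cells that display MHC class I.

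Psmb8 and Psmb9 lie next to each other and to the peptide transporter gene Tap1 in the MHC region of chromosome 17, in mm10 at 34197721 to 34201454 on the plus strand and 34181987 to 34187764 on the minus strand. Psmb10 lies apart from them on chromosome 8, at 105935735 to 105938444. Psmb5 is on chromosome 14 (54614119 to 54618022), Psmb6 on chromosome 11 (70525367 to 70527858) and Psmb7 on chromosome 2 (38588036 to 38644087). The 150 bases before the RefSeq start (GRCm38.p6, the mm10 build) are shown for the immunoproteasome genes Psmb8 and Psmb9. Those of their constitutive counterparts Psmb5 and Psmb6 are set beside them, and those of Psmb10 and Psmb7 are not shown. Capitals mark a match to a STAT-type site spelled TTCNNNGAA or to an antioxidant-type site spelled TGACNNNGC.
Psmb8: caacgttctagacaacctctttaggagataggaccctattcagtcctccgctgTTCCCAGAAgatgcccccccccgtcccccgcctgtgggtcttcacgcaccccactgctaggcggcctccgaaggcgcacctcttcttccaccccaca
Psmb9: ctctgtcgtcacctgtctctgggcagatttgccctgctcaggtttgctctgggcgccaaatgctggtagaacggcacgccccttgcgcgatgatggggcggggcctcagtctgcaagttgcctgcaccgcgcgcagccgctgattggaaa
Psmb5: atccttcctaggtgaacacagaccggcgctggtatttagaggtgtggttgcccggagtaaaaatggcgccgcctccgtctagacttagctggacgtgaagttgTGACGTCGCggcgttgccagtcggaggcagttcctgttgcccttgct
Psmb6: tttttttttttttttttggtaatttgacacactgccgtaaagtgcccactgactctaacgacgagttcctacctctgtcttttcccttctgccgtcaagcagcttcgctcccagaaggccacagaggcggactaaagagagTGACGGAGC

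These stretches span chr17:34198045-34198194 on the plus strand for Psmb8, chr17:34187331-34187480 on the minus strand for Psmb9, chr14:54617996-54618145 on the minus strand for Psmb5 and chr11:70525207-70525356 on the plus strand for Psmb6. For Psmb8 and Psmb9 the stretch lies inside the gene span given above, so the RefSeq start used lies within the annotated gene. The Psmb5 stretch overlaps its gene span in part, and that of Psmb6 lies outside its span. For Psmb8 and Psmb9 the bases before the annotated start are thus not those shown. The match in Psmb8 starts 97 bases before the RefSeq start, that in Psmb5 47 bases and that in Psmb6 9 bases. RefSeq's table held 42 of the 50 genes, and both strands of its 300-base windows were searched. The letters TTCNNNGAA were in 3 of the 42 windows (7.1%; Psmb8, Psmd2 and Psmg1) and in 9.55% of 27025 gene windows. TGACNNNGC was in 6 (14.3%) against 13.99% of all. The core of the interferon-stimulated response element was in 5 of 42 (11.9%; Psmb3, Psmd4, Psmd9, Psme1 and Psmg4) against 3.99% of all, and the ETS-type site CCGGAAGT in 9 of 42 (21.4%) against 4.31% of all. These shares count letters in a window and say nothing of binding.

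Constitutive subunits were present in every strain at levels that spanned a wide range. Levels between genes are compared per kilobase of annotated exon. The 34 genes classed here as constitutive 20S and 19S subunits include every Psmd gene. Of these, Psmd5, Psmd9 and Psmd10 encode chaperones of cap assembly. The mean level of the 34 ran from 1.33 CPM per kb for Psmd9 to 45.6 CPM per kb for the ATPase gene Psmc1. The median was 11.4 CPM per kb. The highest level of all 50 was that of Psme1, which encodes a PA28 activator subunit, at 50.7 CPM per kb.

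Within the alpha ring the mean level was highest for Psma6 (31.2 CPM per kb) and lowest for Psma1 (7.75 CPM per kb). Among the beta subunits without a catalytic role it was highest for Psmb2 (13.1 CPM per kb) and lowest for Psmb3 (5.29 CPM per kb), and among the ATPases Psmc2 was lowest (6.93 CPM per kb). Psmd7, a lid subunit of the cap, led the non-ATPase genes at 43.9 CPM per kb. Of the activator and inhibitor genes the lowest was Psmf1, which encodes the inhibitor PI31, at 3.42 CPM per kb. Of the Psmg assembly chaperones, Psmg4 stood at 28.3 CPM per kb and Psmg3 at 1.17 CPM per kb. The testis alpha subunit gene Psma8 (1.57 CPM per kb) and the thymus beta subunit gene Psmb11 (0.120 CPM per kb, at 0 in 39 libraries) were low.

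The immunoproteasome genes lay within the range of the 34 genes classed as constitutive, whose lowest was Psmd9. The mean level was 9.25 CPM per kb for Psmb8, 2.101 CPM per kb for Psmb9 and 13.3 CPM per kb for Psmb10. Their counterparts stood at 5.64 CPM per kb for Psmb5, 18.6 CPM per kb for Psmb6 and 6.997 CPM per kb for Psmb7. Markers of microglia and leukocytes, cells known for the immunoproteasome, summed to 0 to 115.0 CPM over 12 genes (median 11.6), against 9620 to 18690 CPM for 10 endothelial markers. The 10 pericyte markers summed to 2160 to 9759 CPM (median 4494) and the 10 astrocyte markers to 1108 to 19790 CPM (median 3409). The paper states that EC were enriched but not pure. The part of other cells in the immunoproteasome levels was not tested.

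**Figure D1:**
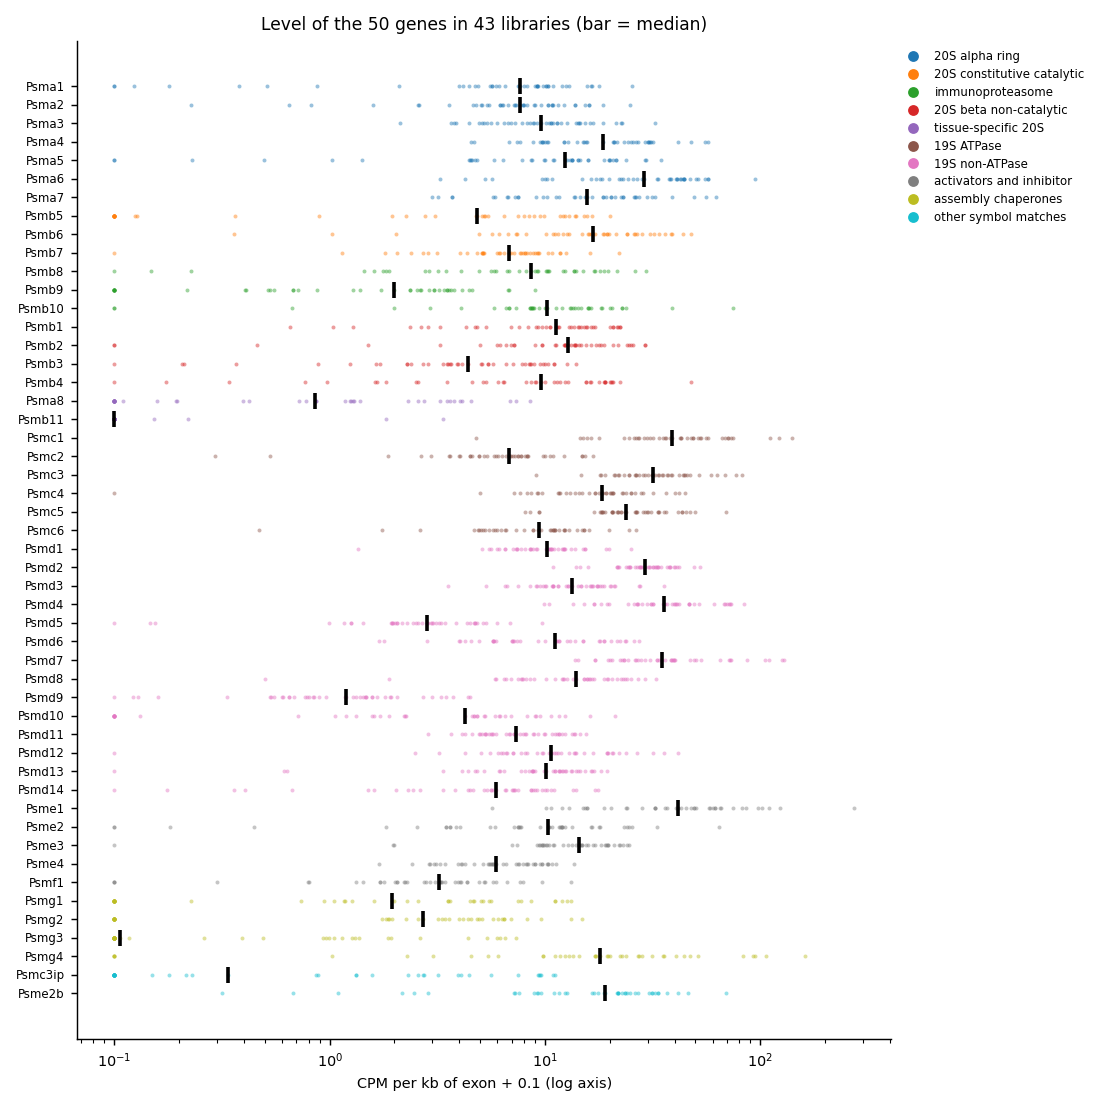
Level of each of the 50 genes in each of 43 libraries, as CPM per kb of exon plus 0.1 on a log axis, coloured by class, with a bar at the median. Psme1, Psmc1 and Psmd7 lie at the right, Psmb11 is at 0 in 39 libraries, and Psmb5 and Psmb9 have points at the left edge, where a library held no read.

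Single libraries differed strongly even for these housekeeping genes. The coefficient of variation (SD over mean) across the 43 libraries had a median of 0.603 over the 34 constitutive subunits and was lowest for Psmd2 at 0.294, a gene named after its value was seen. A library held no read for 27 of the 50 genes at least once, Psmb5 in 12 libraries and Psmb9 in 8. Totals ran from 1626534 to 49372356 counts with a median of 5790701, so that the floor of 3 counts stood between 0.0537 and 1.84 CPM. These values limit what can be said of single libraries.

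Some reads cannot be placed with certainty. Near-identical sequence (at least 95% identical) elsewhere in the genome was found for 12 genes, among them Psmb5, whose copy Gm3375 is 98.9% identical and had 1720 counts beside 3152 for Psmb5. Psme2 and Psme2b are 99.4% identical and had 13657 and 13574 counts. The annotated span of another gene overlaps 24 of the 50, in 19 cases on the opposite strand, as with Psmb9 and Tap1, Psmb7 and Nek6, and Psmc3ip and Mlx. The strand setting of the counting is not given in the sources used here. Values of these genes are uncertain to that degree.

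The ratio of each immunoproteasome gene to its counterpart was taken in every library as the log2 of the ratio of CPM per kb, with 0.5 added to both. It is a description, with no test. The ratio of Psmb8 to Psmb5 averaged 1.19 ± 1.80 (SD, n = 43) and was above 0 in 31 of 43 libraries. As counted, Psmb8 was thus the higher one in most, but Psmb5 held no read in 12 libraries. Counts of the near-identical copy Gm3375 were not added to Psmb5 in this ratio. The ratio of Psmb9 to Psmb6 averaged -3.00 ± 1.34 and was above 0 in 1 of 43, so Psmb6 led nearly everywhere. The ratio of Psmb10 to Psmb7 averaged 0.64 ± 1.64 and was above 0 in 33 of 43.

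By strain, the ratio of Psmb8 to Psmb5 was highest in 129S1/SvImJ (2.45 ± 1.31, n = 9, above 0 in all 9) and lowest in CAST/EiJ (-0.16 ± 0.41, n = 6, above 0 in 2 of 6). A/J stood at 2.02 ± 1.61, C57BL/6J at 1.72 ± 2.099, WSB/EiJ at 0.88 ± 2.11, DBA/2J at 0.49 ± 1.99 and NOD/ShiLtJ at 0.30 ± 1.56. Neighbours in this order differed by less than the larger of their SDs. The median of Psmb5 was 0.0250 CPM in 129S1/SvImJ and 0.0 CPM in A/J and WSB/EiJ, so the ratio in these strains rests on a Psmb5 level close to 0.

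The ratio of Psmb10 to Psmb7 was highest in C57BL/6J at 2.21 ± 1.44 (above 0 in 6 of 6), followed by CAST/EiJ at 1.51 ± 0.89 and DBA/2J at 1.27 ± 0.69. WSB/EiJ stood at -0.12 ± 2.51 and 129S1/SvImJ at -0.21 ± 1.80. The ratio of Psmb9 to Psmb6 lay between -3.59 ± 0.90 in 129S1/SvImJ and -2.101 ± 2.141 in WSB/EiJ, a smaller range of means than the SD within WSB/EiJ.

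**Figure D2:**
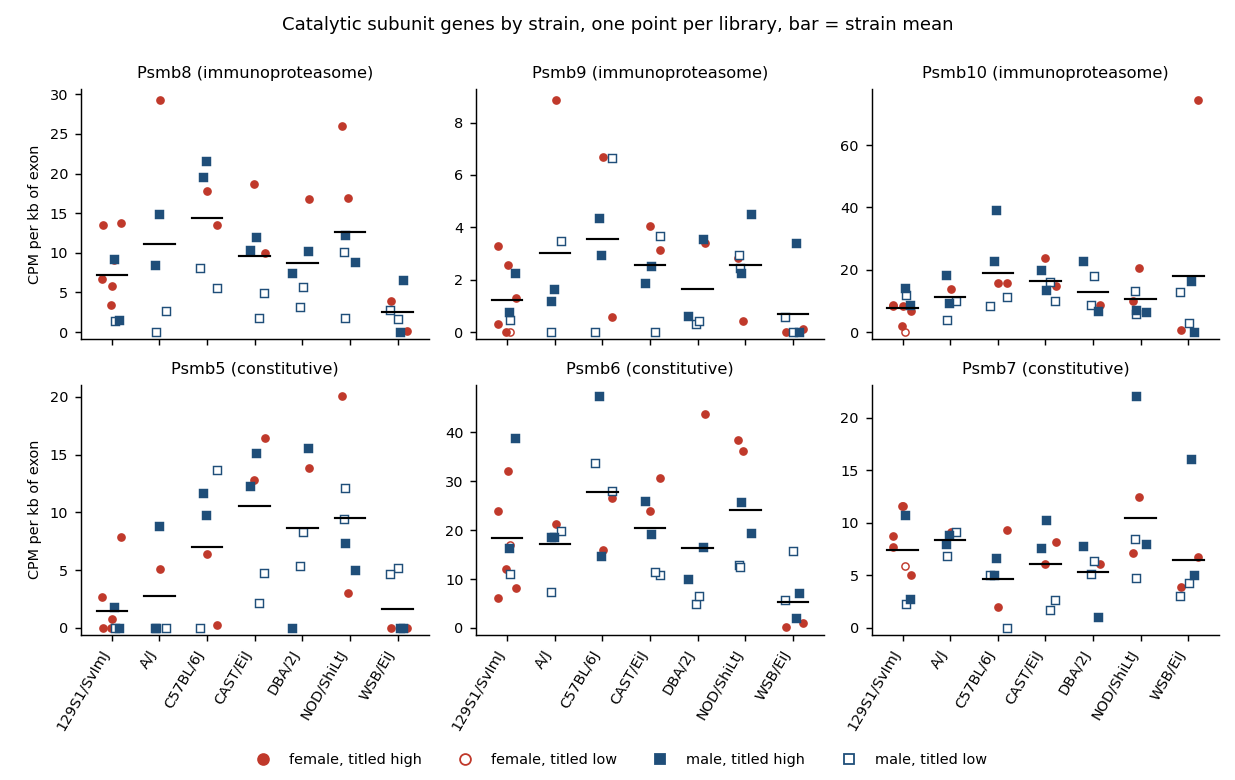
Level in CPM per kb of exon of the 3 immunoproteasome genes (upper row) and their constitutive counterparts (lower row) in each strain. Each point is a library, marked by sex and title tag, and the bar is the strain mean. WSB/EiJ has the lowest Psmb8 mean, and its Psmb10 mean rests on 1 female cortex library at 126.7 CPM.

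Between strains, Psmb8 was lowest in WSB/EiJ. The 6 WSB/EiJ libraries held 0.0, 0.43, 5.63, 9.44, 13.4 and 22.1 CPM of Psmb8. A/J held 0.165, 9.04, 28.7, 50.4 and 98.8 CPM, and DBA/2J 10.5, 19.3, 25.2, 34.7 and 56.6 CPM. In CPM, the lowest, median and highest of Psmb8 were 4.55, 22.6 and 46.6 in 129S1/SvImJ, 18.6, 53.0 and 73.0 in C57BL/6J, 5.84, 34.4 and 63.0 in CAST/EiJ, and 6.04, 37.9 and 87.9 in NOD/ShiLtJ. Every strain overlapped with every other.

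Psmb9 reached 32.4 CPM at most (in A/J), and its strain means ran from 2.50 ± 4.96 CPM in WSB/EiJ to 12.9 ± 10.6 CPM in C57BL/6J. Psmb10 means ran from 13.1 ± 7.52 CPM in 129S1/SvImJ to 32.1 ± 18.8 CPM in C57BL/6J. Neither gene passed the test among strains.

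In the F test over 7 strains (edgeR quasi-likelihood, Benjamini-Hochberg over 29120 genes), 781 genes (2.68%) passed an adjusted p of 0.05, among them 1 of the 50. This was Psma6 of the alpha ring (adjusted p = 0.0219). At an unadjusted p under 0.05 the test held 12 of the 50, against 10.7% of all genes. The adjusted p was 0.357 for Psmb8, 0.820 for Psmb9, 0.820 for Psmb10, 0.768 for Psmb5, 0.160 for Psmb6, 0.820 for Psmb7, 0.468 for Psme1 and 0.900 for Psme2. Psma6 was not called without the 5 libraries under 3000000 counts (adjusted p = 0.255) or in male libraries (adjusted p = 0.709).

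When each strain was set against the mean of the other 6 in the same fit, WSB/EiJ had 4 of the 50 called, all lower, where 2.41% of all genes were called. Psma6 ran from 3.89 to 22.03 CPM in WSB/EiJ (median 9.36) and from 6.39 to 117.0 CPM in the other 37 libraries (median 46.5). Its fitted log2 difference was -2.001 ± 0.425 (SE, adjusted p = 0.00261), with overlap in 6 of the 37 other libraries.

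Psmb6, the constitutive counterpart of Psmb9, ran from 0.487 to 29.6 CPM in WSB/EiJ against 9.06 to 88.7 CPM elsewhere, a log2 difference of -1.93 ± 0.49 (adjusted p = 0.0152). Psmd14, the cap enzyme that removes ubiquitin, ran from 0.0 to 12.1 CPM against 0.212 to 49.6 CPM, a difference of -2.53 ± 0.67 (adjusted p = 0.0224). For Psmb8 the difference was -2.06 ± 0.61 (adjusted p = 0.0494), and 12 of the 37 other libraries lay below the highest WSB/EiJ library. Psmb5, the counterpart of Psmb8, held no read in 4 of the 6 WSB/EiJ libraries.

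WSB/EiJ libraries were also the shallowest. They held 1626534 to 5331064 counts, 4 of 6 were under 3000000, and 8754 to 13652 genes had a count, against 11530 to 16612 in the other strains. Without libraries under 3000000 counts none of the 4 genes was called in WSB/EiJ (adjusted p = 0.133 for Psma6, 0.544 for Psmb8), although the log2 differences stayed at -2.28 and -1.91. In male libraries the difference was -1.44 for Psmb8 (adjusted p = 0.470), and without the male hippocampus library titled low it was -2.09 (adjusted p = 0.0735). The Psmb8 call was also lost with sex, region and tag as covariates (-1.82, adjusted p = 0.0661) and with DESeq2's size factors (adjusted p = 0.0604). The 10 pericyte markers summed to 5242 to 9759 CPM in WSB/EiJ (median 9037), against a median of 4494 CPM in the long-inbred strains, and the 10 endothelial markers to 12760 to 16930 CPM. The part of depth and of pericyte RNA in these differences was not tested further.

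Psmc3ip, which matches the symbol pattern but encodes a partner of the meiotic recombinases rather than a subunit, stood out in NOD/ShiLtJ. All 6 NOD/ShiLtJ libraries held 13.5 to 19.7 CPM. Of the other 37 libraries, 17 held no read, the median was 0.145 CPM, and 1 library (129S1/SvImJ, at 20.1 CPM) overlapped. The log2 difference was 4.01 ± 0.94 (adjusted p = 0.0299), where 0.185% of all genes were called in that strain. Without libraries under 3000000 counts it was 4.502 with an adjusted p of 0.0591.

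Psma8 was nearly absent from CAST/EiJ, where 1.35% of all genes were called. Its 6 libraries held 1 read of Psma8 in all, 0.0146 CPM pooled with an exact 95% Poisson interval of 0.000369 to 0.0812 CPM. The other 37 libraries held 3329 reads, 6.48 CPM pooled, though 8 of them held none and the highest stood at 21.1 CPM. That library, a female 129S1/SvImJ hippocampus one, held 1089 of the reads and the DBA/2J female library 943. The median over all 43 libraries was 1.89 CPM. In WSB/EiJ only the female hippocampus library (35 reads) and the male cortex library titled low (16 reads) held any. The pooled ratio was 444-fold, and its interval, which covers counting error only and no spread between libraries, ran from 79.7-fold to 17550-fold. The fit, which includes that spread, gave a log2 difference of -7.17 ± 1.95. The contrast passed the test (adjusted p = 0.0316) but not in male libraries alone (adjusted p = 0.456).

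No member was called in the other 4 strains, where the share of all genes called was 1.46% in 129S1/SvImJ, 0.254% in A/J, 0.529% in C57BL/6J and 0.192% in DBA/2J. DESeq2 called 2 in C57BL/6J (Psma2 and Psmd6, both lower) and none in the other 3. The share of all genes that DESeq2 called in C57BL/6J is not given here.

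Between cortex and hippocampus no proteasome gene passed the test. Psmb8 ran from 0.0 to 87.9 CPM in cortex (median 22.6, n = 21) and from 0.165 to 98.8 CPM in hippocampus (median 29.3, n = 22). Psmb9 had medians of 6.91 and 6.80 CPM, and Psmb10 of 17.1 and 21.1 CPM. The regions overlapped almost fully for all 3.

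None of the 50 was called by edgeR's quasi-likelihood test (adjusted p under 0.05) or by DESeq2, where edgeR called 0.0755% of all genes. At an unadjusted p under 0.05 there was 1 of 50, against 5.6% of all genes. The smallest p-values were those of Psmb11, Psma6 (log2 difference hippocampus minus cortex 0.47 ± 0.28, adjusted p = 0.669) and Psme1 (0.48 ± 0.28, adjusted p = 0.669). Psmb11 had reads in 4 libraries in all, all from male hippocampus, at 0.257, 0.578, 8.27 and 15.7 CPM, and no fold is given for it. The 95% interval of the fold was 0.699 to 1.94 for Psmb8, 0.492 to 2.61 for Psmb9 and 0.530 to 1.49 for Psmb10, and the data are compatible with differences within these bounds.

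The ratio of Psmb8 to Psmb5 was 0.70 ± 1.72 in cortex and 1.65 ± 1.78 in hippocampus, a gap smaller than either SD. The log2 difference was 0.22 ± 0.38 for Psmb8 and -0.53 ± 0.74 for Psmb5. It was -0.09 ± 0.31 for Psmb6, -0.03 ± 0.31 for Psmb7 and -0.09 ± 0.41 for Psme2.

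Between the title tags, compared within male libraries because only 1 female library is titled low, Psmb8 showed the smallest p of the 50. Psmb8 ran from 0.0 to 73.0 CPM in the 14 libraries titled high (median 32.9) and from 0.165 to 34.3 CPM in the 13 titled low (median 9.44). Of the 14 libraries titled high, 12 lay above the median of those titled low, and the groups overlapped. The fitted log2 difference (high minus low) was 1.43 ± 0.43, a fold of 2.70 with a 95% interval of 1.497 to 4.866, at an unadjusted p of 0.00163 and an adjusted p of 0.105 (edgeR quasi-likelihood over 27529 genes).

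Psmb8 therefore missed the threshold. Over 11 alternatives its log2 difference stayed between 1.302 and 1.62 and its adjusted p ran from 0.00822 to 0.715. It passed in 4 of them, which were DESeq2, edgeR's default deviances, the fit with strain and region as covariates (1.54, adjusted p = 0.0341) and the fit without libraries under 3000000 counts (1.46, adjusted p = 0.0451).

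The other immunoproteasome genes had smaller fitted differences. Psmb9 ran from 0.0 to 16.5 CPM in libraries titled high (median 8.29) and from 0.0 to 24.3 CPM in those titled low (median 1.65), with a log2 difference of 0.52 ± 0.73 (adjusted p = 0.782). Psmb10 ran from 0.0 to 66.5 CPM (median 23.5) and from 4.83 to 30.8 CPM (median 17.2), with a difference of 0.54 ± 0.38 (adjusted p = 0.652). Of the 14 libraries titled high, 13 lay above the median of those titled low for Psmb9 and 8 for Psmb10, and the ranges of the tags overlapped for both.

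The constitutive counterparts had differences of the same sign, 0.31 ± 0.90 for Psmb5, 0.55 ± 0.33 for Psmb6 and 0.90 ± 0.40 for Psmb7, and none was called. Psme1 ran from 12.3 to 145.7 CPM in libraries titled high (median 92.02) and from 22.1 to 91.3 CPM in those titled low (median 52.5), a difference of 0.72 ± 0.26 (adjusted p = 0.244). Psmc6, an ATPase of the cap, ran from 17.8 to 55.6 CPM (median 37.1) and from 5.77 to 38.1 CPM (median 19.8), a difference of 0.80 ± 0.30 (adjusted p = 0.283). For Psme2 it was 0.84 ± 0.54 (adjusted p = 0.652).

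None of the 50 was called by edgeR for the tag, where 1.06% of all genes were called (0.294% higher and 0.77% lower in libraries titled high). DESeq2 called 3 (Psmb8, Psmc2 and Psmc6), and the share of all genes it called for the tag is not given here. At an unadjusted p under 0.05 there were 6 of 50, against 8.11% of all genes. The log2 difference was above 0 for 44 of the 50, with a median of 0.39, against a median of 0.04 over all genes tested. All genes tested include many of low level, so these medians are not matched for level. The 34 constitutive subunits had a median of 0.31, with 31 above 0.

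In 13 pairs of male libraries of the same strain and region, Psmb8 was higher in the library titled high in 11. It was lower in NOD/ShiLtJ hippocampus (30.0 against 34.3 CPM) and in WSB/EiJ cortex (0.0 against 5.63 CPM). Psma5, Psma7, Psmc6 and Psme1 were also higher in 11 of 13. Psmb1, Psmb3, Psmb6, Psmb7, Psmc2, Psmd6 and Psmd12 were higher in 10. Among the other named genes it was 9 for Psmb10 and Psme2, 8 for Psmb9 and 6 for Psmb5. Pairs were not counted in this way over all genes. Whether the libraries of a pair came from the same mouse is not given.

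**Figure D3:**
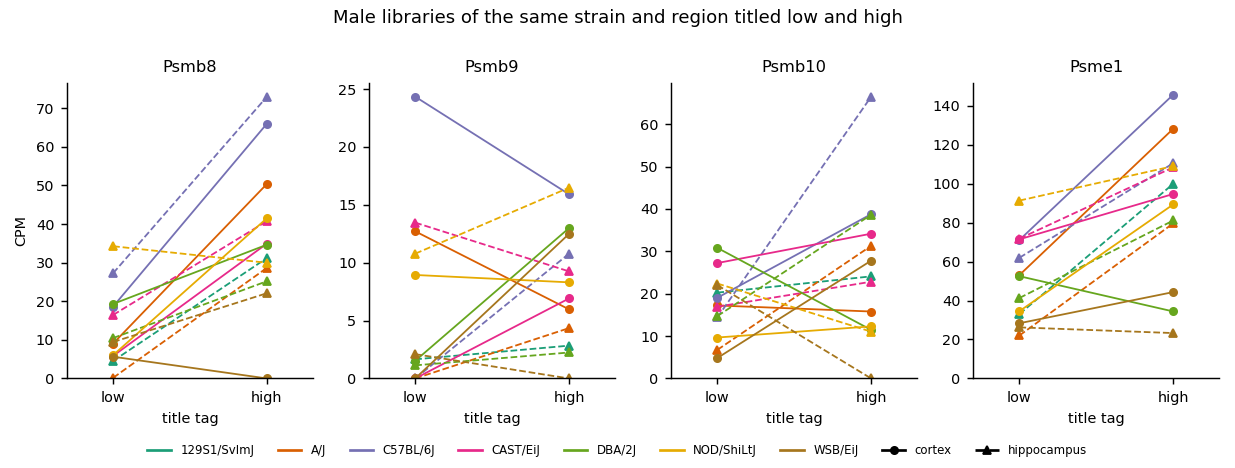
CPM of Psmb8, Psmb9, Psmb10 and Psme1 in male libraries of the same strain and region titled low (left) and high (right). Each line is 1 of 13 strain and region pairs, with circles and solid lines for cortex and triangles and dashed lines for hippocampus. Psmb8 and Psme1 are higher in the library titled high in 11 of 13 pairs, Psmb10 in 9 and Psmb9 in 8.

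The tag went with the makeup of the libraries, though the ranges overlapped for every marker list. The 10 endothelial markers summed to 12760 to 18490 CPM in male libraries titled high and to 12260 to 15450 CPM in those titled low. The 10 astrocyte markers summed to 1469 to 7306 CPM and 3167 to 19790 CPM, the 6 neuronal markers to 79.8 to 477.7 CPM and 190.1 to 553.2 CPM, and the 6 oligodendrocyte markers to 14.7 to 156.0 CPM and 31.4 to 188.5 CPM. The 12 microglia and leukocyte markers summed to 0.0 to 27.6 CPM in libraries titled high, with Cd3e at 0 in all, and to 2.33 to 48.2 CPM in those titled low. The 10 pericyte markers summed to 2330 to 9013 CPM in libraries titled high (median 3905) and to 2799 to 9759 CPM in those titled low (median 6863). Their mean log2(CPM + 1) went the other way, at 7.27 and 7.12. The 6 smooth muscle markers summed to 250.1 to 498.3 CPM and 282.7 to 654.0 CPM. The part of other cells in the Psmb8 difference was not tested. In sorted bulk RNA, fewer cells of a type and less RNA per cell cannot be told apart.

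The summed level of the 3 immunoproteasome genes was 22.1 to 150.3 CPM in male libraries titled high (median 63.2) and 6.92 to 67.4 CPM in those titled low (median 33.6). The summed level of Psmb5, Psmb6 and Psmb7 was 30.7 to 130.2 CPM (median 68.5) and 25.2 to 80.5 CPM (median 41.5). Both sums were thus higher at the median in libraries titled high. The ratio of Psmb8 to Psmb5 was 1.35 ± 1.63 in those titled high and 0.13 ± 1.78 in those titled low, and that of Psmb10 to Psmb7 was 0.56 ± 1.602 and 1.22 ± 1.45, which point opposite ways within 1 SD.

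Of the comparisons made, female against male EC had the most proteasome genes called, and also the largest share of all genes called. The comparisons were not tested against each other. All 11 members called were higher in female EC, where 2.85% of all genes were called, 2.56% higher in female EC and 0.292% lower. Among genes with a mean of at least 10 CPM, 11 of 40 members were called, all higher, against 8.79% of all such genes called and 8.12% called higher. The called genes belong to the alpha ring (3 of 7: Psma3, Psma4 and Psma7) and the ATPases (2 of 6: Psmc1 and Psmc3). Others belong to the Psmd class (4 of 14: Psmd4, Psmd7, Psmd8 and Psmd12), the activators and inhibitor (1 of 5: Psme1) and the Psmg chaperones (1 of 4: Psmg4). All 11 calls were lost when the share of rRNA-like counts, which did not overlap between the sexes, was a covariate, so the differences below cannot be told apart from that share. None of the 3 immunoproteasome genes, the 3 constitutive catalytic genes or the other 4 beta genes was called. Sex was fitted without strain, and 129S1/SvImJ gave 6 of the 16 female and 3 of the 27 male libraries. Over 13 alternatives, 1 of them with strain and region as covariates, the 10 called genes with the smallest p passed in 9 to 11.

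Psmd7 had the smallest p. It ran from 69.0 to 290.0 CPM in 16 female libraries (median 153.9) and from 30.9 to 112.9 CPM in 27 male libraries (median 59.3). All 16 female libraries lay above the male median and 10 male libraries at or above the lowest female one. The log2 difference (female minus male) was 1.35 ± 0.17 (adjusted p = 3.9e-08).

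Psme1 ran from 33.7 to 601.5 CPM in female libraries (median 153.3) and from 12.3 to 145.7 CPM in male libraries (median 71.1), a difference of 1.47 ± 0.22 (adjusted p = 2.0e-06). The highest value was that of the single DBA/2J female library. Psma7, an alpha ring subunit, ran from 22.6 to 191.1 CPM (median 80.7) and from 8.87 to 84.1 CPM (median 35.3), a difference of 1.24 ± 0.24 (adjusted p = 0.000254). Groups overlapped for both.

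The alpha genes Psma4 (1.11 ± 0.22) and Psma3 (0.91 ± 0.23), the ATPase genes Psmc1 (1.01 ± 0.20) and Psmc3 (0.81 ± 0.17) and the ubiquitin receptor gene Psmd4 (0.90 ± 0.18) had log2 differences near 1, with adjusted p from 0.000413 to 0.00946. Psmd12, a lid subunit, differed by 1.15 ± 0.28 (adjusted p = 0.00874). Psmg4 had the largest fitted difference of those called at 1.66 ± 0.46 (adjusted p = 0.0254), from a median of 6.83 CPM in male to 17.3 CPM in female libraries, with 4 male libraries at 0. Psmd8, the member called with the largest p, differed by 0.80 ± 0.24 (adjusted p = 0.0496) and is named after its value was seen.

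The immunoproteasome genes did not pass. Psmb8 ran from 0.433 to 98.8 CPM in female libraries (median 45.7) and from 0.0 to 73.0 CPM in male libraries (median 22.1), a log2 difference of 0.85 ± 0.37 (adjusted p = 0.274), or a fold of 1.80 with a 95% interval of 1.10 to 2.96. For Psmb9 the difference was 0.26 ± 0.63 (fold interval 0.512 to 2.81) and for Psmb10 0.20 ± 0.39 (0.678 to 1.95), with adjusted p of 0.865 and 0.824. A p that misses the threshold does not show that these genes differed less than those called, and the difference between the classes was not tested.

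Of the constitutive catalytic genes, Psmb5 differed by -0.02 ± 0.76 (adjusted p = 0.994), Psmb6 by 0.30 ± 0.31 (adjusted p = 0.602) and Psmb7 by 0.19 ± 0.32 (adjusted p = 0.786). Psme2, the partner of Psme1 in PA28, ran from 3.06 to 113.7 CPM in female and from 0.0 to 42.1 CPM in male libraries. Its difference of 1.10 ± 0.39 missed the threshold (adjusted p = 0.143) and passed when the counts of its near-identical copies were added to each gene (0.98).

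Over all 50 genes the log2 difference was above 0 for 44, with a median of 0.52. The median was -0.12 over all genes tested and 0.17 over those with a mean of at least 10 CPM. With DESeq2's size factors in place of TMM the median was 0.40 for the members and -0.24 for all genes tested. The 34 constitutive subunits had a median of 0.54, with 33 above 0.

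**Figure D4:**
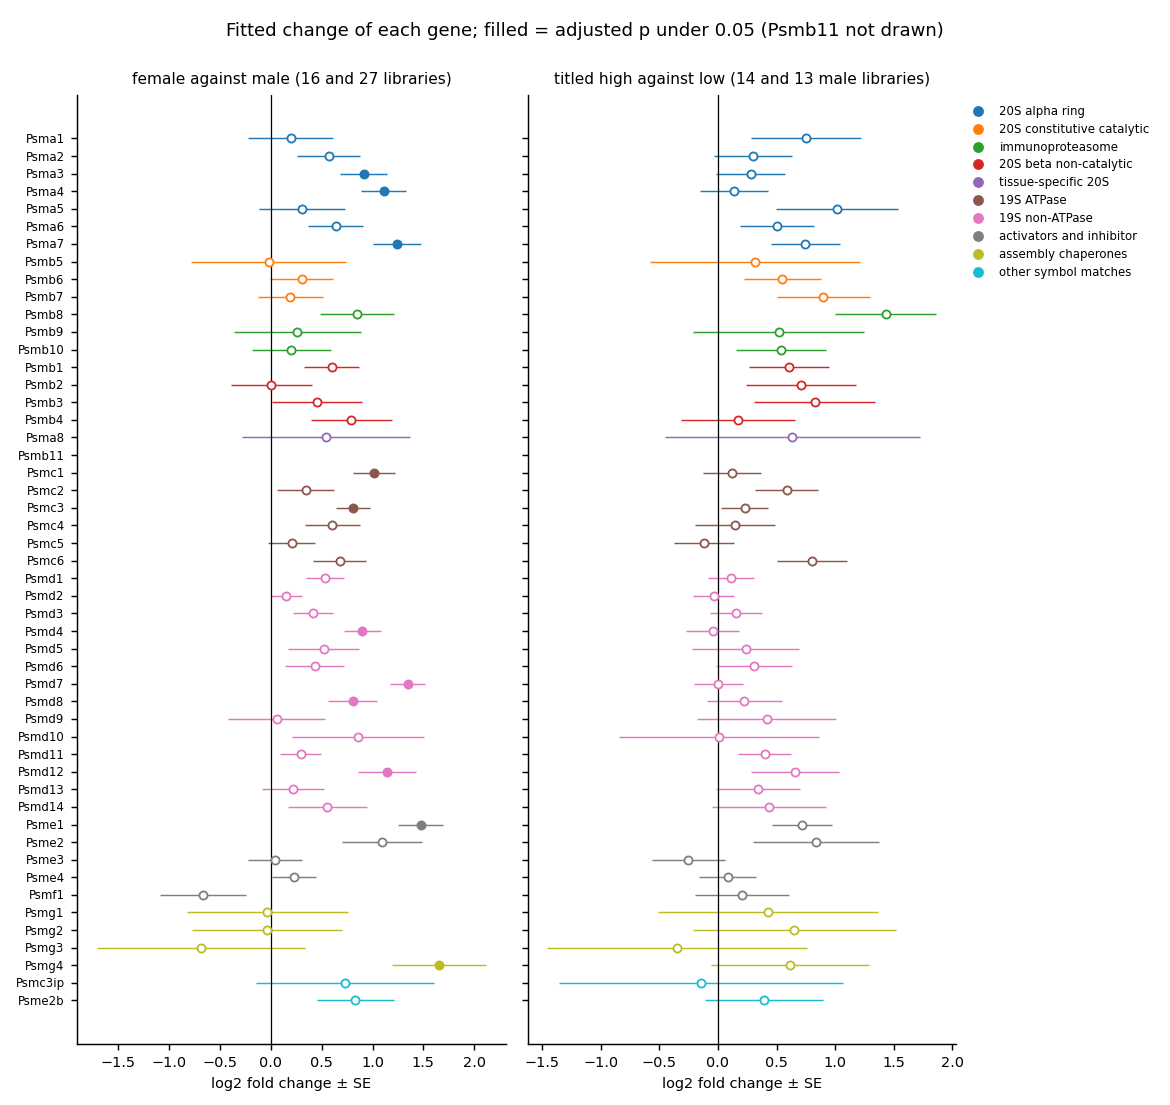
Fitted log2 fold change with its SE for each gene, female against male on the left (16 and 27 libraries) and male libraries titled high against low on the right (14 and 13). Filled points passed an adjusted p of 0.05, which 11 genes did for sex and none for the tag. Psmb11, with reads in 4 libraries, is not drawn.

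The female mean was above the male mean in all 7 strains for 9 of the 11 called genes, in 6 strains for Psmd8 and in 5 for Psmg4, but A/J and DBA/2J have 1 female library each. Psmb8 was higher in female EC in 6 of 7 strains, Psmb9 in 5 and Psmb10 in 4. In 12 strain and region cells with libraries titled high of both sexes, the female mean was higher in 12 for Psmd7, in 11 for Psma3, Psma7, Psmd4 and Psmd12, in 10 for Psme1, Psmc1 and Psmc3, in 9 for Psma4 and Psmd8 and in 7 for Psmg4. It was higher in 8 for Psmb8, in 7 for Psmb9 and in 6 for Psmb10. The called genes were chosen by the sex test on these same libraries, so their counts here describe the call and give no separate support. Over all 50 genes, 11 had a higher female mean in all 7 strains, among them Psmc4 and Psmd3, which were not called. Such counts were not made over all genes of the table.

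**Figure D5:**
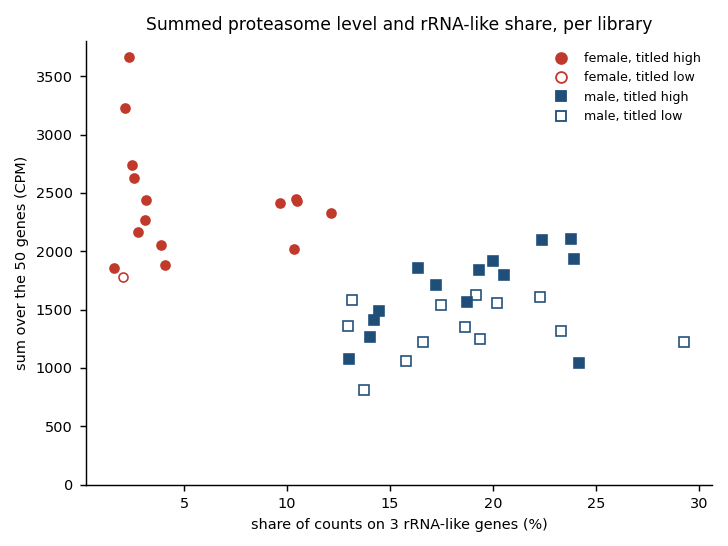
Summed CPM of the 50 genes in each library (vertical) against the percent of counts on 3 rRNA-like genes (horizontal), marked by sex and title tag. Female libraries lie at 1779 to 3662 CPM and 1.59% to 12.1%, and male libraries at 810.4 to 2108 CPM and 12.97% to 29.26%.

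The 50 genes summed to 1779 to 3662 CPM in female libraries (median 2373) and to 810.4 to 2108 CPM in male libraries (median 1543). Sex also went with how the libraries were made up. Genes that hold rRNA-like sequence (Gm23935, Gm42418 and Gm26917) took 1.59% to 12.1% of the counts of female libraries and 12.97% to 29.26% of those of male libraries, with no overlap, and the median total was 21242058 counts in female and 5257353 in male libraries. With this share as a covariate none of the 50 was called by edgeR, against 0.249% of all genes, and 17 had an unadjusted p under 0.05, against 12.1% of all genes, while the log2 difference of Psmd7 was 0.81 and that of Psme1 1.34. The 10 astrocyte markers summed to 1108 to 4919 CPM in female and 1469 to 19790 CPM in male libraries, and their part in the sex difference was not tested. Because the rRNA-like share did not overlap between sexes, sex and this share cannot be told apart here.

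In A/J, CAST/EiJ and NOD/ShiLtJ, where the share was 9.66% to 12.1% in 5 female and 13.7% to 23.9% in 12 male libraries, none of the 50 was called by edgeR, against 0.0697% of all genes. At an unadjusted p under 0.05 there were 12 of 50, against 5.93% of all genes. The difference was 0.61 for Psmd7, 0.65 for Psme1 and 0.90 for Psma7. In the other 4 strains, with a share of 1.59% to 4.05% in 11 female and 12.97% to 29.26% in 15 male libraries, 9 were called, against 2.58% of all genes. Whether the sex difference itself differed between these sets of strains was not tested. Among libraries titled high 6 were called (Psma4, Psmc1, Psmc3, Psmd4, Psmd7 and Psme1), against 1.73% of all genes.

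Wild-derived and long-inbred strains did not differ in a called proteasome gene. Of all genes, 0.749% were called by edgeR (0.508% with the wild-derived mean higher, 0.24% with it lower), and of the 50 none by edgeR or DESeq2, with 5 at an unadjusted p under 0.05 against 7.01% of all genes. The smallest p-values were those of Psmc1 (log2 difference wild-derived minus long-inbred -0.64 ± 0.26, adjusted p = 0.481), the nuclear activator gene Psme4 (0.52 ± 0.22, adjusted p = 0.537) and Psma8 (adjusted p = 0.597), whose low values in CAST/EiJ are given above. Psmb8 differed by -0.78 ± 0.43 (adjusted p = 0.754), Psmb9 by -0.49 ± 0.70 and Psmb10 by 0.53 ± 0.41. With WSB/EiJ alone as wild-derived Psma6 and Psmb6 were called, and with CAST/EiJ alone Psma8. The shares of all genes called with either strain alone are not given here.

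Psmb5 differed by 0.18 ± 0.81, Psmb6 by -0.68 ± 0.35, Psmb7 by -0.21 ± 0.35, Psme1 by -0.59 ± 0.32 and Psme2 by 0.26 ± 0.45 between origins. No interaction of sex with region, tag with region or region with origin was called for any of the 50 by edgeR. Of all genes, 0.00343%, 0.0% and 0.0% were called, and of the 50, 1, 0 and 1 had an unadjusted p under 0.05. DESeq2 was not run for these.

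Genes that work beside the proteasome were read from 2 lists. Of 22 partner genes (ubiquitin genes, shuttles and regulators), 2 were called between sexes, both higher in female EC. Of all genes 2.85% were called between sexes, and 8.79% of those with a mean of at least 10 CPM. These were the ubiquitin gene Ubb (1.38 ± 0.19, adjusted p = 3.1e-07) and Sem1, a small cap subunit (1.49 ± 0.22, adjusted p = 6.2e-07). For the tag 1 was called, Nfe2l1, which encodes the factor that raises proteasome genes when the proteasome is inhibited. It was lower in male libraries titled high (-0.62 ± 0.12, adjusted p = 0.00212), where 1.06% of all genes were called. Ubb was also called among strains (adjusted p = 6.7e-05), where 2.68% of all genes were called. No partner gene was called between regions or origins.

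Of 10 genes of peptide loading and interferon response, 4 were called among strains, against 2.68% of all genes. These were H2-D1, B2m, Nlrc5 and H2-K1 (adjusted p from 1.0e-06 to 0.00601). Between origins H2-D1 (-1.78 ± 0.28) and B2m (-0.88 ± 0.22), both parts of MHC class I, were lower in wild-derived strains. Of all genes 0.749% were called between origins. None was called for sex, region or the tag. MHC genes are highly variable between strains, and reads of all strains were aligned to 1 reference.

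The genes whose log2(CPM + 1) followed the immunoproteasome genes most closely over the 43 libraries were named by their Pearson r. This is a description over 10648 genes with a mean of at least 5 CPM, in libraries that share strain, sex and depth. For Psmb8 they were Pak1ip1 (r = 0.78), Puf60 (0.76), the cap subunit gene Psmd13 (0.75), Gpx1 (0.73) and Cavin3 (0.71). For Psmb9 they were Gpaa1 (0.74), Idh3g (0.68), Stx5a (0.67), Srgn (0.66) and Prkch (0.65), and for Psmb10 Zfp110 (0.79), Gtf3c5 (0.74), Trp53 (0.73), Arpc5 (0.73) and Il17rd (0.71).

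Among themselves the 3 genes were less alike. Pearson's r was 0.42 between Psmb8 and Psmb9, 0.42 between Psmb9 and Psmb10 and 0.06 between Psmb8 and Psmb10.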

How the data were processed

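Total RNA of sorted brain EC was measured in 43 libraries. The authors depleted rRNA, made libraries with a low-input stranded kit, aligned single-end reads to mm10 with HISAT2 2.1.0 and counted reads per gene with featureCounts (Subread 1.4.4), with SAMtools 1.9 among the submitters' tools. The deposited values are raw counts per gene in 1 table, and reads of all strains were aligned to 1 build, which may lower counts where a strain differs from it. The strand setting is not given in the sources used here.

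Groups came from the labels. Counts were scaled by TMM, a gene was tested once any 1 library reached 0.5 CPM (29120 genes, 27529 in male libraries), and edgeR 4.0.16 (glmQLFit with bias-adjusted deviances, glmQLFTest; R 4.3.3, limma 3.58.1) was fitted over all genes, with Benjamini-Hochberg adjustment at 0.05. The strain fit gave the F test and the contrasts of each strain, and sex, region, origin and tag were fitted separately, the tag in male libraries. The 95% fold intervals were taken from the SE of the fitted log2 difference. DESeq2 1.42.0, other scalings, filters, covariates and subsets were alternatives. Covariate fits dropped genes fitted at over 5 times the highest count observed, none of them a proteasome gene. Exon lengths and positions came from GENCODE, where 54495 of 54532 identifiers matched, and promoters from RefSeq. Scripts were tested on simulated counts. The genes, lists and the deviance setting were chosen with earlier results of these data known. Named were the catalytic genes, Psme1 and Psme2 in every comparison, the called genes (the 10 with the smallest p where more were called), the 3 with the smallest p where none was called, the highest and lowest of each class, and the 5 genes most like each immunoproteasome gene. Totals were 1626534 to 49372356 counts, and floors of 3 counts cover counting error only. Some list genes are not reported here.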

Additional observations from a re-analysis of the deposited data

Results flagged for a closer look

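Of 84 sets of libraries of 1 strain, 10 held a library far from the others by Dixon's test, where chance gives about 1 in 20. Values are log2(CPM + 1) unless stated, and no explanation was tested. Psme2 was low in the 129S1/SvImJ male cortex library titled high, at 0.196 with the next at 3.76, and in the C57BL/6J female cortex library titled high, at 2.02 with the next at 4.31. Psmb6 was low in the A/J male hippocampus library titled low, at 3.88 with the next at 5.16. Psmb9 was 0.0 in the CAST/EiJ male cortex library titled low, with the next at 2.98, and 1.36 in the NOD/ShiLtJ female hippocampus library, with the next at 3.22. Psmb7 was low in the DBA/2J male cortex library titled high, at 2.19 with the next at 4.21.

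Psme1 was low in the NOD/ShiLtJ male cortex library titled low, at 5.15 with the next at 6.497, and high in the WSB/EiJ female hippocampus library, at 7.50 with the next at 5.50. In DBA/2J the sum of all 50 genes was high in the single female library, at 11.84 with the next at 10.54. The log2 ratio of Psmb8 to Psmb5 was 3.99 in the DBA/2J male hippocampus library titled high, with the next at 0.26.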

How the results depend on the processing

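Of the counts of called genes and the ratios under alternatives, 61 stayed within 1.5 times or 1 SD and 21 moved. Of the values of single genes, 662 kept their direction and side of the threshold, 14 gained and 28 lost the call, and 24 changed sign.
Among strains, where 1 gene was called, DESeq2 called 4, its size factors in edgeR 2, default deviances 11, covariates 2, the stricter filter 2, and libraries of at least 3000000 counts 0. Leaving out each A/J or DBA/2J library in turn gave 1 to 2, with 2 without the female library of either strain. Against the mean of the other strains, 6 became 2 in male libraries, 12 with DESeq2 and 1 without libraries under 3000000 counts. Between regions, 0 became 1 with default deviances. For the tag, 0 became 3 with DESeq2, 3 with default deviances, 1 with covariates and 1 without libraries under 3000000 counts. Between origins, 0 became 1 with CAST/EiJ alone and 2 with WSB/EiJ alone. Between sexes, 11 became 0 in A/J, CAST/EiJ and NOD/ShiLtJ, 0 with the rRNA-like share as covariate and 6 among libraries titled high. Where fewer libraries were used the test had less to work with, and otherwise the cause was not tested. Apart from the sex settings given above, the share of all genes called under each alternative is not given here. These counts therefore do not set proteasome genes apart from other genes.

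No uncalled difference below is a result. Between regions the sign turned for Psmb9 in males (-0.76), for Psmb10 in males (0.14), with covariates (0.044) and without shallow libraries (0.29), for Psmb7 without shallow libraries (0.18) and without 1 WSB/EiJ library (0.0066), and for Psme2 with copies added (0.13) and without shallow libraries (0.33). Between origins it turned for Psmb9 with CAST/EiJ alone (0.13), Psmb10 in males (-0.20), Psmb5 with WSB/EiJ alone (-1.72) and in males (-0.072), and Psme2 with CAST/EiJ alone (-0.29), in males (-1.01) and with covariates (-0.13). Between sexes it turned in the 4 strains other than A/J, CAST/EiJ and NOD/ShiLtJ for Psmb9 (-0.10), Psmb10 (-0.041) and Psmb6 (-0.04042), without shallow libraries for Psmb10 (-0.29), among libraries titled high for Psmb7 (-0.17), and for Psmb5 in A/J, CAST/EiJ and NOD/ShiLtJ (0.84), with copies added (0.16), with the rRNA-like share (1.83) and with strain and region (0.38).

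No paired analysis was possible because the groups compared share only 1 number in the titles (3, in female 129S1/SvImJ libraries), the other libraries carry none in common, and no label names the animal. The sets of strains and the added copies were chosen after seeing the data. WSB/EiJ libraries had the fewest counts, from 1626534 to 5331064.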
